A study of Mus musculus with 39 samples.

Results

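The phagocyte NADPH oxidase was followed here through 6 genes, *Cybb*, *Cyba*, *Ncf1*, *Ncf4*, *Rac1* and *Rac2*, which were picked by symbol from the female and the male gene count tables. All 6 were found in both tables, among 46333 genes in the female and 54532 in the male table. The oxidase is an assembled enzyme that passes electrons from NADPH across a membrane onto oxygen, which makes superoxide. At rest, the membrane pair of *Cybb* (NOX2, the catalytic subunit) and *Cyba* (p22phox, its partner) stays apart from the cytosolic subunits, and phosphorylation of the organizer *Ncf1* together with a Rac GTPase loaded with GTP brings the parts together. It is best known for microbial killing by neutrophils and macrophages, and in brain tissue it is a recognized source of superoxide from microglia.

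RNA was sequenced from CD11b+ cells, labelled as microglia, that had been pulled with magnetic beads from the cerebrum of wild type (WT, C57Bl6) and 5XFAD mice. The 5XFAD line carries mutant human transgenes driven by a neuronal promoter and forms amyloid plaques. From 4 months of age, mice were kept in chronic intermittent hypoxia (CIH, oxygen switched between 6.5% and 21%, each interval lasting 90 seconds, over 8 hours of the sleep period, per the series' design text) or in normoxia (NX, 21% O2), and the study's methods give a somewhat lower oxygen level and a longer daily period. Females were taken at 10 months and males at 8 months, so sex and age cannot be told apart, and each sex was analyzed on its own table. There were 39 libraries, 5 in each group of a sex except 4 in female WT NX, and nothing in the labels says more about the animals than a number per library, so that the spread between libraries may be partly technical.

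Total counts were 14731683 to 25906121 in the female and 13457293 to 23095627 in the male libraries, and no member had fewer than 424 counts in any library. Microglia markers were high in every library (10 genes such as *Cx3cr1* and *P2ry12* summed to between 25502 and 40614 CPM), so the label held. The library labelled F 5XFAD NX 4 stood apart from its group: 5 plaque-responsive microglia markers summed to 292 CPM there and to 3853 to 7150 CPM in the other 4 libraries, while WT libraries of both sexes lay between 120 and 532 CPM. In F WT NX 1, 6 monocyte markers summed to 493 CPM, against 38.3 to 63.6 CPM in the other 3 libraries of that group. Where a member's call changed without either library, its value is given with and without it. In bulk RNA, fewer cells of a type cannot be told apart from less RNA per cell.

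The sequences just upstream of the transcription start are shown for the 3 members that the RefSeq table of this genome build (GRCm38.p6) held, because the membrane pair and the organizer *Ncf1* differed in direction between genotypes, as described further on. *Ncf4*, *Rac1* and *Rac2* were not in that table. Each run is the 250 bases before the start, 5′ to 3′ on the gene's strand, and capitals mark every match on either strand to an IRF motif (GAAA, any 2 bases, GAAA), an AP-1 motif (TGANTCA) or an Sp1 motif (GGGCGG). The positions are chrX:9469325-9469574 for *Cybb*, chr8:122432941-122433190 for *Cyba* and chr5:134229626-134229875 for *Ncf1*, all on the minus strand.
Cybb: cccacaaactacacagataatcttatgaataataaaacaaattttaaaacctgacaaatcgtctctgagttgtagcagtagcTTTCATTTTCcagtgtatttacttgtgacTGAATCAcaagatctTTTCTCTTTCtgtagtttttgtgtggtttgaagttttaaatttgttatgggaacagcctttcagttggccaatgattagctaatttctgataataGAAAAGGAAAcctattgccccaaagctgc
Cyba: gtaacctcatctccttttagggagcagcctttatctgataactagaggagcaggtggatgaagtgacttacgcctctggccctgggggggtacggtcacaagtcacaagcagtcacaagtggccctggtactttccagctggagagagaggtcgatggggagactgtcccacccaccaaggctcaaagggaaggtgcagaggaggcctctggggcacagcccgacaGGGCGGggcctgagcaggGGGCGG
Ncf1: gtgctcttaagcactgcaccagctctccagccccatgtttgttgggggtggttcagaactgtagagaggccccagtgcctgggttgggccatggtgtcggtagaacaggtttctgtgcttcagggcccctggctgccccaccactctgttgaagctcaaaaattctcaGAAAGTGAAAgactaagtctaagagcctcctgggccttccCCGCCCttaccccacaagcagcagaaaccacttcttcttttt
The *Cybb* run held 3 IRF matches, which lay 168 to 159, 124 to 115 and 29 to 20 bases before the start, and 1 AP-1 match. *Ncf1* held 1 IRF match 82 to 73 bases before its start and 1 Sp1 match, and *Cyba* held 2 Sp1 matches, the last ending at the base before the start. Of 32851 promoters of the same length in the table, 2.98% held the IRF motif, 6.75% the AP-1 motif and 32.7% the Sp1 motif. The letters GAGGAA (an ETS core of the PU.1 type, in 23.3% of promoters) and ACGTG (a hypoxia response core, in 16.6%) were also searched on both strands and were not in these 3 windows. These are matches of letters and not measured binding sites. In the male table's annotation, the *Cybb* gene (X:9435252-9487771) starts further upstream than the RefSeq start used here.

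To set the subunits beside each other, levels were compared per length as FPKM, which the authors made from the counts with gene models of different length in each table (*Cybb* 4647 bases in the female and 5808 in the male table), so that levels hold only within a table. *Cyba* was the most abundant of the 6 transcripts in all 8 groups and *Cybb* the least abundant. In female WT NX, *Cyba* reached 394 ± 51.3 FPKM (SD, n = 4), *Ncf1* 291 ± 16.9, *Rac1* 228 ± 5.84, *Ncf4* 76.1 ± 3.94, *Rac2* 44.1 ± 4.46 and *Cybb* 14.3 ± 9.02, and no neighbors in that order overlapped between libraries. In male WT NX the order was *Cyba* (414 ± 102 FPKM, n = 5), *Ncf1* (166 ± 10.9), *Rac1* (94.8 ± 11.4), *Rac2* (65.0 ± 9.80), *Ncf4* (56.8 ± 6.39) and *Cybb* (8.48 ± 2.03), and *Rac2* and *Ncf4* overlapped. In female 5XFAD NX and CIH, *Rac1* and *Ncf1* overlapped, and so did *Rac2* and *Cybb*, since the libraries of *Cybb* reached up to 45.5 and 52.1 FPKM.

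**Figure D1:**
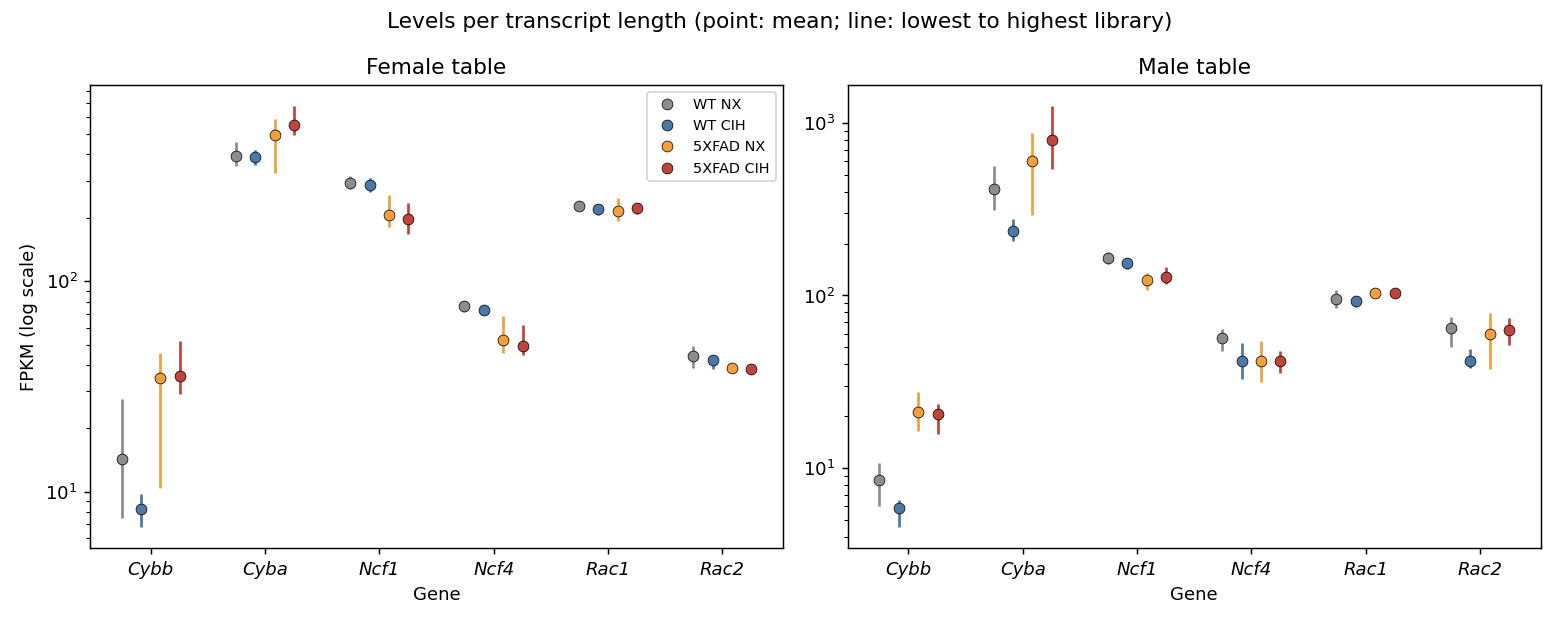
FPKM of the 6 subunit genes on a log axis, in the female (left) and male (right) table, with a point at the mean and a line from the lowest to the highest library of each group. *Cyba* is the highest and *Cybb* the lowest transcript in each group, and the 5XFAD groups lie higher in *Cybb*.

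The ratio of *Cyba* to *Cybb* FPKM within a library ranged from 39.4 to 52.5 in female WT CIH and from 10.6 to 23.4 in female 5XFAD CIH, with no overlap. In female NX it ranged from 16.7 to 47.2 in WT and from 11.99 to 31.2 in 5XFAD, and these groups overlapped. In males the same ratio ranged from 34.2 to 61.4 in WT CIH and from 23.7 to 79.7 in 5XFAD CIH, and from 36.7 to 63.7 in WT NX and from 11.7 to 51.7 in 5XFAD NX, and the groups overlapped in both. The ratio of *Ncf4* to *Ncf1* FPKM had means between 0.251 ± 0.0215 (5XFAD CIH) and 0.261 ± 0.00421 (WT NX) in the 4 female groups. In males its means in NX were 0.344 ± 0.0481 for WT and 0.335 ± 0.0552 for 5XFAD, and in CIH they were 0.270 ± 0.0411 and 0.327 ± 0.0491.

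Tests between groups used edgeR's quasi-likelihood F test on the counts, with TMM normalization, fitting only the libraries compared, and a gene was called at a Benjamini-Hochberg FDR < 0.05 over all genes tested. Log2FC above 0 stands for a higher level in 5XFAD, or in CIH where treatments were compared. Levels in single libraries are given as CPM, reads scaled to a common library size with TMM factors within a sex. All 6 members passed the filter on low counts in every comparison. In the male table's annotation (GRCm38) they lie at X:9435252-9487771 (*Cybb*, ENSMUSG00000015340), 8:122424776-122432930 (*Cyba*, ENSMUSG00000006519), 5:134220053-134229625 (*Ncf1*, ENSMUSG00000015950), 15:78244801-78262580 (*Ncf4*, ENSMUSG00000071715), 5:143503634-143528036 (*Rac1*, ENSMUSG00000001847) and 15:78559167-78572783 (*Rac2*, ENSMUSG00000033220).

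**Figure D2:**
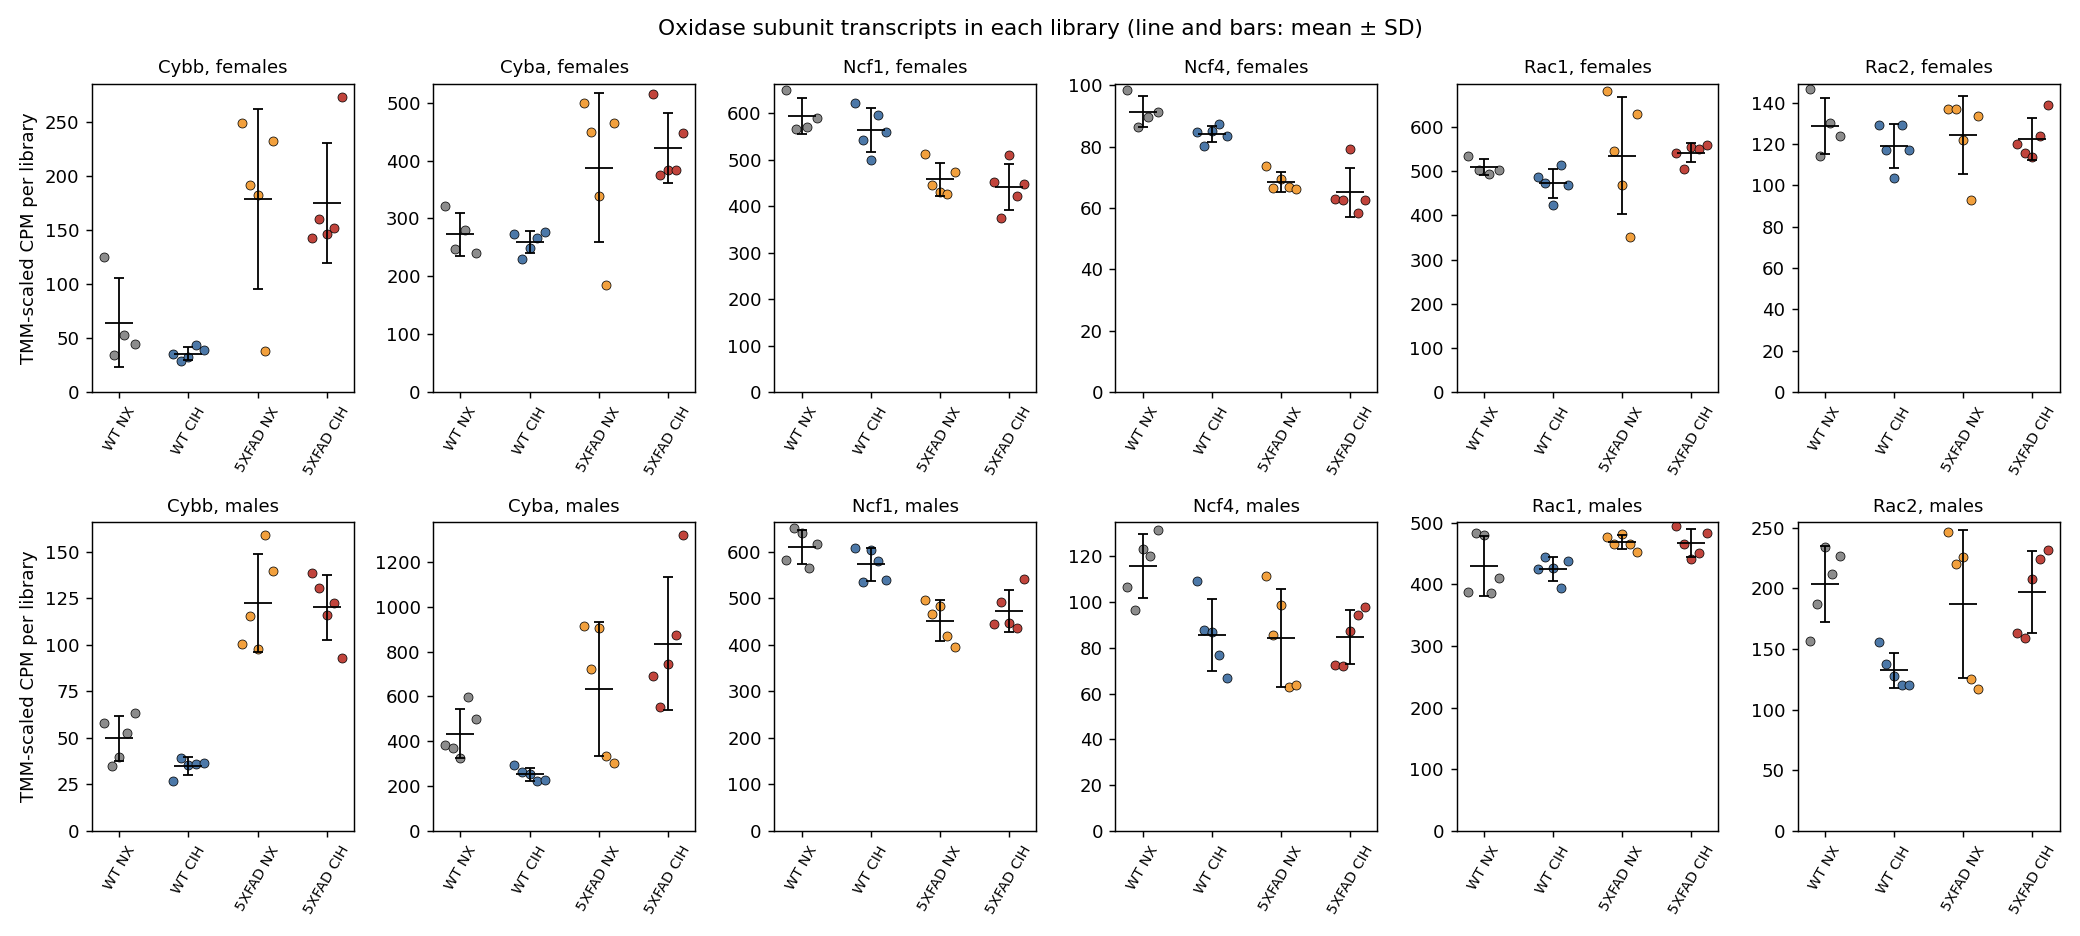
TMM-scaled CPM of each subunit gene (columns) in each female (top) and male (bottom) library, by group, with the mean and SD as a line and bars. *Cybb* is higher in 5XFAD than in WT libraries apart from the library labelled F 5XFAD NX 4 at 38.2 CPM, while *Ncf1* is lower in 5XFAD.

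The first question was how the subunits differed between WT and 5XFAD microglia, in NX and in CIH. *Cybb* had the highest Log2FC of the 6 members in all 4 genotype comparisons, and it rose in 3 of them. In female CIH, *Cybb* was at 34.8, 28.4, 32.1, 43.9 and 38.8 CPM in the WT libraries and at 143, 160, 146, 152 and 273 CPM in the 5XFAD libraries. Every 5XFAD CIH library lay above every WT CIH library, and 5XFAD CIH 5 lay well above the other 4. The Log2FC was 2.30 ± 0.175 (SE, FDR = 2.24e-07), a 4.92-fold rise that was above that of 98.0% of the genes tested. In female NX, *Cybb* was at 125, 34.0, 53.3 and 44.5 CPM in WT and at 249, 192, 183, 38.2 and 233 CPM in 5XFAD. These groups overlapped through the fourth 5XFAD library, which lay below 3 of the 4 WT libraries, and the first WT library was the highest of its group. Over all 9 libraries the test did not call *Cybb* (Log2FC 1.48 ± 0.510, FDR = 0.0758). Without the library labelled F 5XFAD NX 4 the Log2FC was 1.72 (FDR = 0.00303), without F WT NX 1 it was 2.02 (FDR = 0.0470), and without both it was 2.26 ± 0.169 (FDR = 1.37e-05).

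Male *Cybb* was at 58.1, 34.7, 39.7, 52.3 and 63.5 CPM in WT NX and at 100.2, 115, 97.9, 159 and 139.6 CPM in 5XFAD NX. The groups did not overlap, and *Cybb* rose with a Log2FC of 1.32 ± 0.191 (FDR = 0.000399). In CIH it was at 26.8, 39.2, 35.5, 36.0 and 36.4 CPM in WT males and at 139, 130.3, 116, 122 and 92.7 CPM in 5XFAD males. These groups were further apart, with a Log2FC of 1.82 ± 0.127 (FDR = 5.48e-08), a 3.53-fold rise.

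*Cyba*, without which the catalytic subunit is not stable, followed *Cybb* less evenly. In female CIH, *Cyba* was at 274, 230.0, 249, 267 and 277 CPM in WT and at 516, 374, 384, 384 and 447 CPM in 5XFAD, so that the groups did not overlap and *Cyba* rose with a Log2FC of 0.70 ± 0.0941 (FDR = 3.74e-05). In female NX the 5XFAD libraries were at 499.9, 450.1, 339, 184 and 465 CPM and the WT libraries at 321, 247, 281 and 241 CPM. The fourth 5XFAD library was the lowest of all 9, and *Cyba* was not called (Log2FC 0.52 ± 0.229, FDR = 0.141), whereas without that library its Log2FC was 0.67 ± 0.130 (FDR = 0.00240).

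The largest rise of *Cyba* was in male CIH. There it was at 295, 264, 253, 221 and 229 CPM in WT and at 689, 552, 742, 874 and 1322 CPM in 5XFAD. Every 5XFAD library lay above the WT libraries, and the Log2FC was 1.76 ± 0.188 (FDR = 3.55e-06), a 3.38-fold rise. In male NX the 5XFAD libraries fell apart into 912, 720.4 and 905 CPM in libraries 1 to 3 and 334 and 303 CPM in libraries 4 and 5, with WT at 381, 368, 326, 597 and 498 CPM. The groups overlapped and *Cyba* was not called (Log2FC 0.56 ± 0.308, FDR = 0.253). Without M 5XFAD NX 4 and 5, left out after their values were seen, the Log2FC was 0.98 ± 0.163 (FDR = 0.000315).

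Of the cytosolic subunits, *Ncf1* (p47phox, the organizer) went the other way. Female *Ncf1* was at 650.3, 567, 570.3 and 591 CPM in WT NX and at 514, 445, 430.3, 427 and 473 CPM in 5XFAD NX. Every 5XFAD NX library lay below the WT libraries, and *Ncf1* fell by 0.35 on the log2 scale (SE 0.0884, FDR = 0.0355). In female CIH it was at 621, 543, 499, 597 and 559 CPM in WT and at 452, 375, 510.3, 422 and 447 CPM in 5XFAD. One library of each group overlapped, and the Log2FC was again −0.35 ± 0.0807 (FDR = 0.00267).

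In males *Ncf1* fell as well. It was at 581, 650.5, 640.4, 566 and 618 CPM in WT NX and at 497, 467, 484, 418 and 394 CPM in 5XFAD NX, with no overlap (Log2FC −0.42 ± 0.104, FDR = 0.0133). In male CIH it was at 535 to 608 CPM in WT and 436 to 542 CPM in 5XFAD, and these groups overlapped (Log2FC −0.25 ± 0.0926, FDR = 0.0397). That last call was lost when any of 6 of the 10 libraries was left out, with FDR of at least 0.0701. The female NX call of *Ncf1* was lost on leaving out any library other than F 5XFAD NX 4, with FDR between 0.0651 and 0.0941 (−0.31, FDR = 0.0785, without F WT NX 1).

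*Ncf4* (p40phox, which binds a phagosomal lipid and sustains oxidase activity) fell in females. It was at 98.5, 86.4, 89.6 and 91.3 CPM in WT NX and at 73.7, 66.4, 69.4, 66.9 and 66.3 CPM in 5XFAD NX. The library labelled F 5XFAD NX 4 was below all WT libraries here, but on the FPKM scale it was at 68.1, nearer to WT (71.3 to 80.9) than to the other 5XFAD NX libraries (45.8 to 52.9). For *Ncf1* it was at 256 FPKM, with WT at 276 to 315 and the other 5XFAD NX libraries at 181 to 206. On the counts with TMM scaling, the Log2FC of *Ncf4* was −0.39 ± 0.0707 (FDR = 0.0175). In female CIH the WT libraries were at 84.8, 80.2, 85.1, 87.5 and 83.3 CPM and the 5XFAD libraries at 62.8, 62.5, 79.2, 58.3 and 62.8 CPM, again with no overlap (Log2FC −0.37 ± 0.0710, FDR = 0.00073). The NX call was lost without 5XFAD NX 2 or 5 or WT NX 3 or 4, with FDR between 0.0501 and 0.0644. In males *Ncf4* was not called in either comparison, with a Log2FC of −0.44 ± 0.168 in NX (FDR = 0.0948) and 0.02 ± 0.131 in CIH (FDR = 0.918). The male NX value was −0.56 without M 5XFAD NX 1 (FDR = 0.0308) and −0.21 without M 5XFAD NX 4 and 5 (FDR = 0.170). With scaling by library size alone the male CIH value was −0.36 (FDR = 0.0153).

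Mean marker sums of border macrophages, microglia and neutrophils were lower in 5XFAD beside these falls of *Ncf1* and *Ncf4*. The mean sum of 7 border macrophage markers was 263 CPM in WT and 109 CPM in 5XFAD in female NX (6 of the 7 genes fell) and 208 and 97.9 CPM in female CIH (6 fell). In male NX it was 278 and 128 CPM (5 fell) and in male CIH 254 and 136 CPM (3 fell). The sum of the 10 microglia markers was 35081 and 28721 CPM in female NX (5 fell), 34366 and 27373 CPM in female CIH (8 fell and 1 rose), 38236 and 28735 CPM in male NX (7 fell) and 33897 and 28647 CPM in male CIH (6 fell and 2 rose). The mean sum of 12 neutrophil markers was 114 and 81.7 CPM in female NX (none was called), 85.0 and 50.4 CPM in female CIH (4 of the 9 tested fell), 630 and 418 CPM in male NX (none was called) and 203 and 146 CPM in male CIH (3 of the 11 tested fell). The NX sums spread widely and overlapped. In females they ranged from 50.8 to 271 CPM in WT (median 66.4) and from 12.1 to 261 CPM in 5XFAD (median 34.5). In males they ranged from 253 to 1283 CPM in WT and from 75.3 to 1334 CPM in 5XFAD. The mean sum of 6 monocyte markers was 162 and 57.2 CPM in female NX and 102 and 81.6 CPM in male NX (1 of 6 fell in each), while in CIH it was 56.7 and 62.1 CPM in females and 60.1 and 63.8 CPM in males. The 162 CPM in female WT NX rested on F WT NX 1, at 493 CPM. Medians in female NX were 58.2 CPM in WT and 50.7 CPM in 5XFAD, and the groups overlapped. The part of these lists in the falls was not tested.

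Other lists were higher in 5XFAD beside the rises of *Cybb*, *Cyba*, *Rac1* and *Rac2* in CIH. The mean sum of 5 plaque-responsive microglia markers was 166 CPM in WT and 5490 CPM in 5XFAD in female CIH, and 135 and 6649 CPM in male CIH, and all 5 rose in each. The sum of 4 astrocyte markers was 161 and 351 CPM in females (2 rose and 1 fell) and 157 and 384 CPM in males (1 rose and 1 fell). That of 4 endothelial markers was 80.6 and 178 CPM in females and 76.1 and 120 CPM in males (1 rose and 1 fell in each), and that of 4 oligodendrocyte markers 131 and 232 CPM and 167 and 236 CPM. The 8 lymphocyte markers summed to 2.22 and 4.08 CPM in females and to 3.24 and 9.82 CPM in males, where 2 of the 3 tested rose. In male NX, where *Cybb* rose as well, plaque-responsive markers had means of 168 and 6051 CPM (5 rose) and astrocyte markers 138 and 479 CPM (1 rose and 1 fell). Endothelial markers had 108 and 169 CPM there (1 rose and 1 fell), oligodendrocyte markers 146 and 304 CPM (2 rose) and lymphocyte markers 5.15 and 7.96 CPM (none was called). The part of these lists in the rises was not tested.

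Between genotypes in CIH, *Rac1* was called in females and *Rac2* in males, and the difference between the sexes was not tested. Neither was called between genotypes in NX, but the test of the difference between NX and CIH called neither (interaction of 0.09 for female *Rac1*, FDR = 0.957, and 0.71 for male *Rac2*, FDR = 0.129). *Rac1*, which is used in most cell types, was at 424 to 514 CPM in female WT CIH and at 506 to 560 CPM in female 5XFAD CIH, and rose with a Log2FC of 0.20 ± 0.0580 (FDR = 0.0106), although with scaling by library size alone it was 0.0074 (FDR = 0.917) and with 4 groups in one fit the FDR was 0.172. It was not called in the other genotype comparisons (Log2FC 0.09 in female NX, 0.14 in male NX and 0.17 in male CIH, with FDR of 0.694, 0.426 and 0.10), and in male CIH the direction turned to −0.21 with library size alone (FDR = 0.0472).

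*Rac2*, the isoform of blood cells and the main Rac of the neutrophil oxidase, was at 155, 138, 128, 120.3 and 119.9 CPM in male WT CIH and at 163, 159, 208, 224 and 232 CPM in male 5XFAD CIH. The groups did not overlap, with the first libraries of each close together, and *Rac2* rose with a Log2FC of 0.61 ± 0.121 (FDR = 0.000883). With scaling by library size alone it was 0.23 (FDR = 0.0751). In male NX, *Rac2* had the same break as *Cyba* among the 5XFAD libraries, with 247, 220.1 and 225 CPM in libraries 1 to 3 and 125 and 117 CPM in libraries 4 and 5, against 157 to 234 CPM in WT, and was not called (Log2FC −0.11 ± 0.213, FDR = 0.798). Without libraries 4 and 5 the direction turned (0.20 ± 0.118, FDR = 0.224). Female *Rac2* was at 104 to 129 CPM in WT CIH and at 114 to 139 CPM in 5XFAD CIH and was not called (Log2FC 0.04 ± 0.0692, FDR = 0.627), and with library size alone the direction turned (−0.15, FDR = 0.0366).

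**Figure D3:**
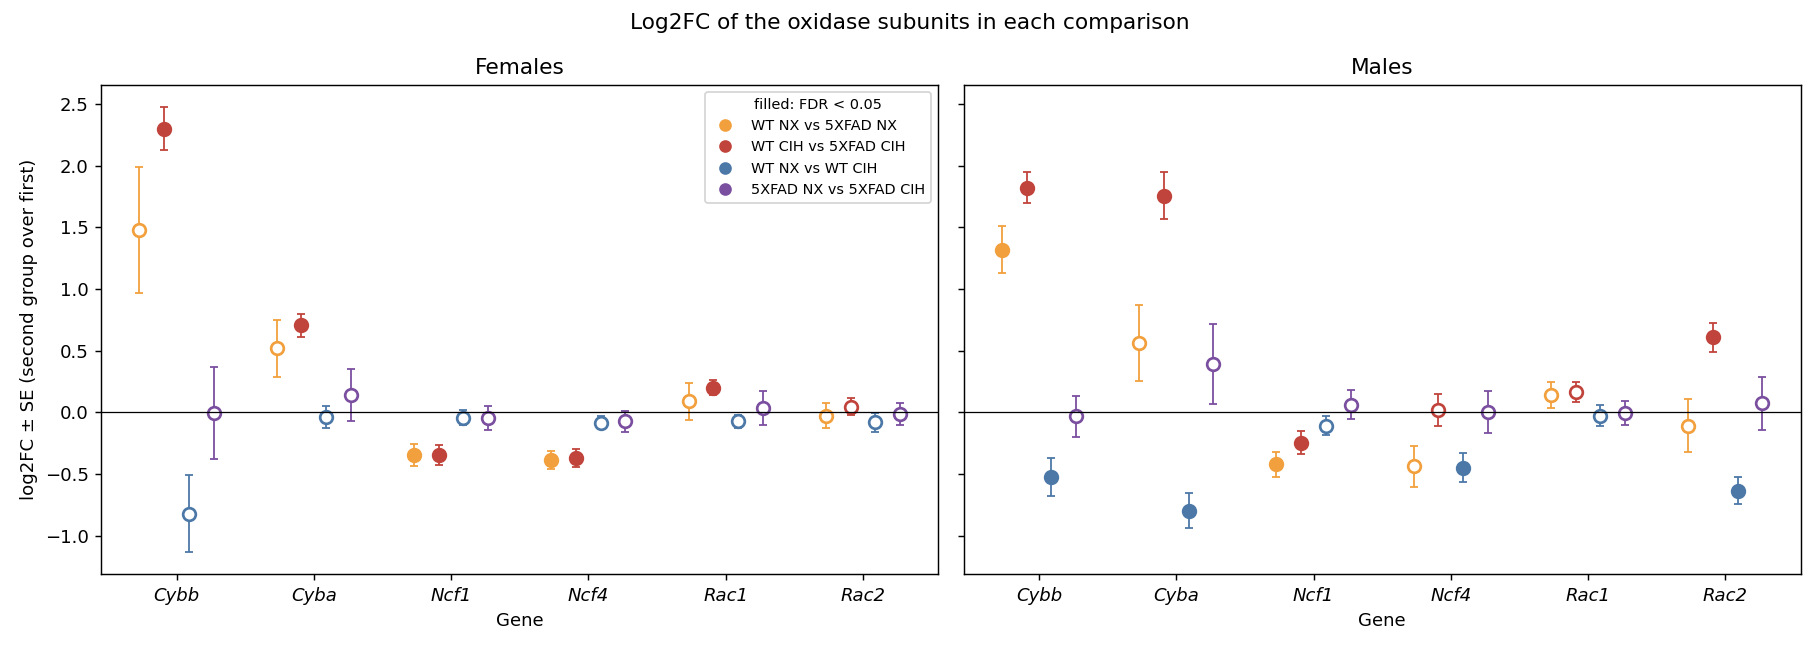
Log2FC with SE of the 6 subunit genes in the 4 pairwise comparisons of females (left) and males (right); filled points have an FDR < 0.05. *Cybb* and *Cyba* lie above 0 and *Ncf1* below 0 in the genotype comparisons, and in males *Cybb*, *Cyba*, *Ncf4* and *Rac2* lie below 0 in WT CIH against WT NX.

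Between WT NX and 5XFAD NX females, 2 of the 6 members were called, where 13.9% of all genes tested were called. None was higher (background 7.26%) and 2 were lower (6.61%). Without the library labelled F 5XFAD NX 4, 4 members were called (2 higher, 2 lower) at a background of 44.0%, without F WT NX 1 there were 2 at 6.52%, and without both there were 4 at 45.1%. Between WT CIH and 5XFAD CIH females, 5 members were called at a background of 51.9%, with 3 higher (26.2%) and 2 lower (25.7%). In males, 2 members were called in NX at a background of 17.8%, with 1 higher (10.4%) and 1 lower (7.37%), and without M 5XFAD NX 4 and 5 there were 3 at 33.5%. In male CIH, 4 were called at 49.0%, with 3 higher (25.3%) and 1 lower (23.7%). The share called in either direction was above the background in these comparisons, with only 6 genes behind each share, while the share higher in female NX and the share lower in male CIH were below it.

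With an absolute Log2FC above 1 as well, which is the DEG rule of the study's methods, no member was left in female NX, where 4.4% of all genes passed it as higher. *Cybb* was left in female CIH (8.83% of all genes higher by this rule) and in male NX (5.94%), and *Cybb* and *Cyba* in male CIH (11.8%). Groups did not overlap in 2 members in female NX (14.1% of all genes), in 3 in female CIH (35.7%), in 2 in male NX (15.2%) and in 3 in male CIH (34.4%). Scaling by library size alone moved the median Log2FC of all genes from −0.02 to −0.21 in female CIH and from −0.06 to −0.43 in male CIH. The genes called higher and lower were then 2610 and 6288 in females in place of 3906 and 3833, and 2205 and 6800 in males in place of 3739 and 3509.

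The same libraries were used for the question of what CIH did within a genotype, so that the WT CIH libraries, low in several members, enter both kinds of comparison. In WT males, 4 of 6 members were called, all lower in CIH, where 28.6% of all genes tested were called, 13.6% higher and 15.0% lower. With an absolute Log2FC above 1 no member was left (0.881% of all genes passed as lower), and groups did not overlap in 2 members (16.4%). *Cyba* fell by 0.80 on the log2 scale (SE 0.141, FDR = 0.000978), from 326 to 597 CPM in WT NX to 221 to 295 CPM in WT CIH, with no overlap. *Rac2* fell by 0.64 (SE 0.109, FDR = 0.000815), from 157, 187, 234, 212 and 227 CPM in WT NX to between 119.9 and 155 CPM in WT CIH, again with no overlap, though the first WT NX library lay just above the highest WT CIH library. *Cybb* fell by 0.52 (SE 0.151, FDR = 0.0171) and *Ncf4* by 0.45 (SE 0.118, FDR = 0.00998), and both overlapped between the groups. *Ncf1* and *Rac1* were not called (Log2FC −0.11 and −0.03, FDR = 0.310 and 0.848).

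Sums of other gene lists moved with this fall in WT males. The summed level of 12 neutrophil markers was 253 to 1283 CPM in WT NX and 120 to 354 CPM in WT CIH, and neutrophils carry the oxidase too. Its part in the result was not tested. Without M WT NX 3 and 5, which held the highest sums (887 and 1283 CPM), the fall was 0.85 in *Cyba* (FDR = 0.00462), 0.51 in *Rac2* (FDR = 0.0117), 0.50 in *Cybb* (FDR = 0.0495) and 0.36 in *Ncf4* (FDR = 0.0859), with 3 members called at a background of 18.2%. The summed level of ribosomal protein genes, a list chosen after the data were seen, was 21802 to 31815 CPM in WT NX and 14555 to 16173 CPM in WT CIH. The sum of 6 monocyte markers was 61.1 to 153 CPM in WT NX and 39.9 to 79.5 CPM in WT CIH (3 of the 6 genes fell), and that of the microglia markers had means of 38236 ± 1570 and 33897 ± 2124 CPM (4 of 10 fell). Of 5 plaque-responsive markers 2 fell, and of 7 border macrophage markers 3 fell. The part of these lists in the result was not tested. When all 4 male groups shared one fit, no member was called (FDR from 0.0612 to 0.0841 for the 4), and no gene was called at all, with 4491 at an unadjusted p below 0.05. *Cybb* alone was lost without M WT NX 5 (FDR = 0.0537).

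No member was called for CIH in the other 3 settings, where edgeR's quasi-likelihood test called no gene at all (0.0%) and no member was without overlap between its groups (1.01% of all genes in WT females, 0.597% in 5XFAD females and 0.803% in 5XFAD males). In WT females *Cybb* had a Log2FC of −0.82 ± 0.310 (FDR = 0.960), and this rested on F WT NX 1, without which it was −0.27. The other 5 members were between −0.08 and −0.04 there. Over all genes 565 had an unadjusted p below 0.05, the likelihood ratio test called 0 and DESeq2 called 1. In 5XFAD females the 6 members had a Log2FC between −0.07 (*Ncf4*) and 0.14 (*Cyba*), with 470 genes at an unadjusted p below 0.05 and none called by either other test. In 5XFAD males they were between −0.03 (*Cybb*) and 0.39 (*Cyba*, SE 0.326), with 473 genes at an unadjusted p below 0.05 and 1 gene, none of the members, called by each of the other tests.

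Whether the genotype difference changed with CIH was tested as an interaction over the 4 groups of a sex, and no member and no gene was called in either sex (0.0% in both) by the quasi-likelihood test. In males the interaction was 1.19 ± 0.388 in *Cyba* (Log2FC, FDR = 0.121), 0.71 ± 0.258 in *Rac2* (FDR = 0.129) and 0.49 ± 0.233 in *Cybb* (FDR = 0.197). Over all genes, 3857 had an unadjusted p below 0.05 in males, the likelihood ratio test called 248 and DESeq2 called 945, with *Cyba* among them (FDR = 0.0360). Without M 5XFAD NX 1, *Cyba* was called by the quasi-likelihood test (FDR = 0.0478), and without M 5XFAD NX 4 and 5 its Log2FC was 0.77 (FDR = 0.389), that of *Cybb* 0.71 (FDR = 0.379) and that of *Rac2* 0.40 (FDR = 0.461). In females the value in *Cybb* was 0.80 ± 0.535 (FDR = 0.952), and 0.01 without F 5XFAD NX 4 and F WT NX 1. Over all female genes 589 had an unadjusted p below 0.05, and neither other test called any.

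*Cyba* moved with the ribosomal protein genes over the libraries of both sexes. Their summed level in male 5XFAD NX was 64431, 62314 and 66460 CPM in libraries 1 to 3 and 29421 and 27103 CPM in libraries 4 and 5, which is the same break as in *Cyba* and *Rac2*. Male *Ncf4* had it too, with 111, 85.6 and 98.8 CPM in libraries 1 to 3 and 62.7 and 63.7 CPM in libraries 4 and 5. The male library with the most *Cyba* (M 5XFAD CIH 5, 1322 CPM) had the highest sum of all (85902 CPM), and the female library with the least (F 5XFAD NX 4, 184 CPM) had the lowest sum among females (10682 CPM). *Cybb* did not have this break, since it was highest among the male 5XFAD NX libraries in libraries 4 and 5 (159 and 139.6 CPM).

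**Figure D4:**
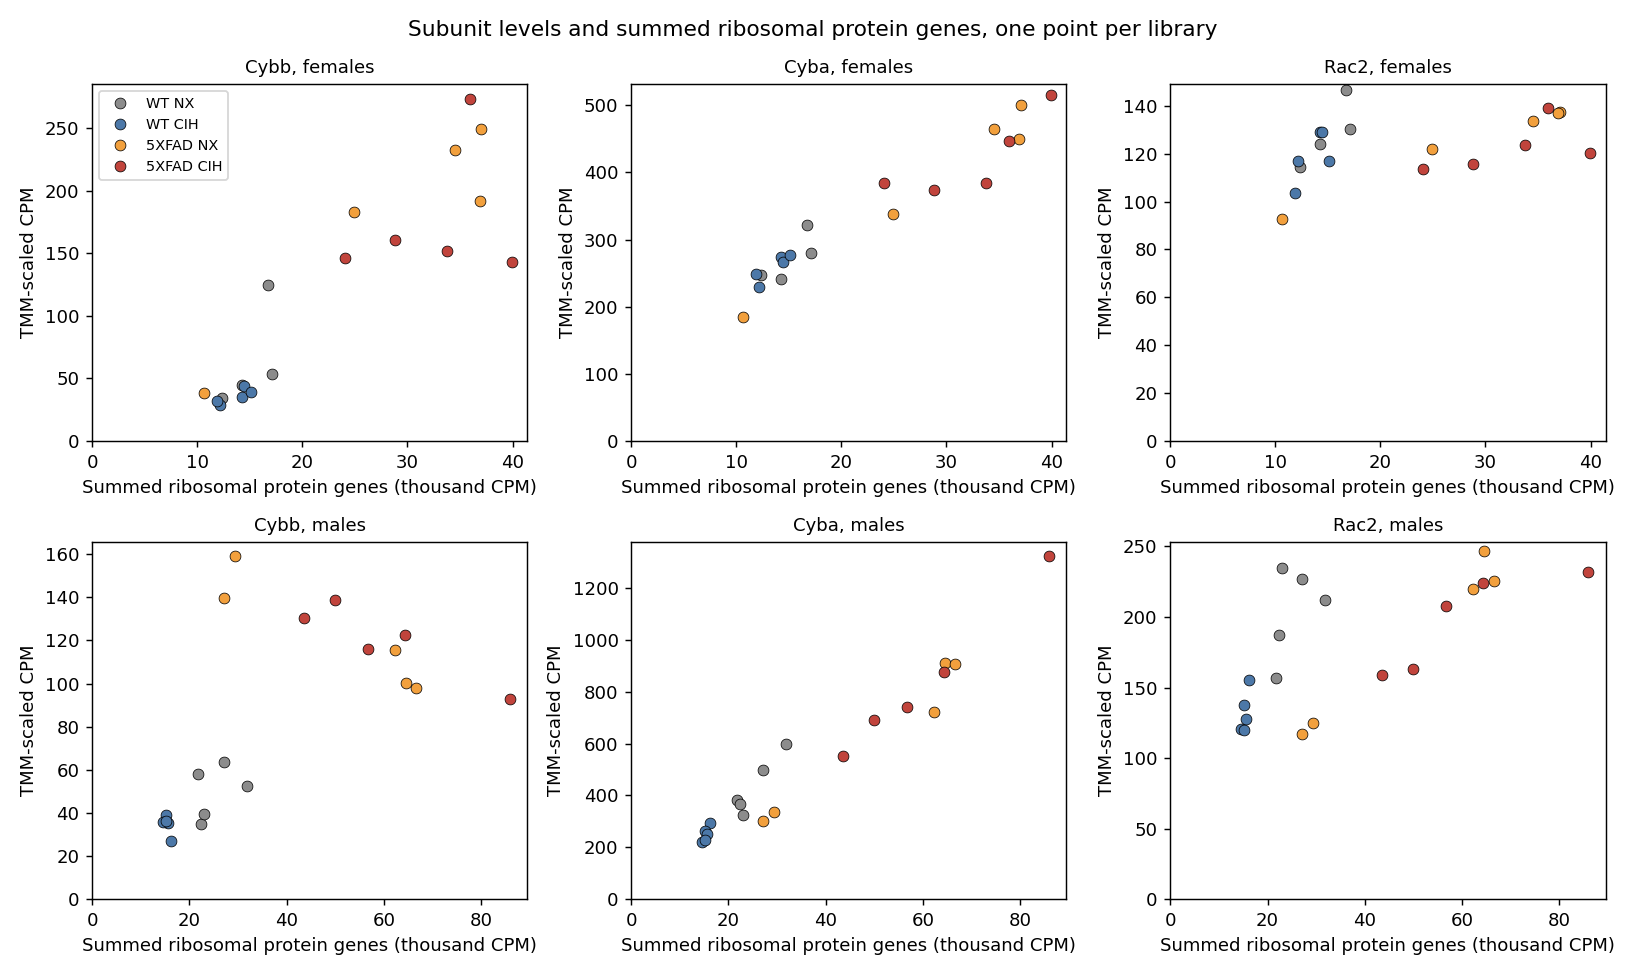
TMM-scaled CPM of *Cybb*, *Cyba* and *Rac2* against the summed CPM of ribosomal protein genes (in kilo-CPM), one point per library, for females (top) and males (bottom). *Cyba* rises with the sum across all groups, whereas *Cybb* separates by genotype apart from the library labelled F 5XFAD NX 4, which also has the lowest female sum, and male *Cybb* is high in 2 of the 5XFAD NX libraries, which have low sums.

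Gene length went along with these differences as well. *Cyba* has the shortest gene model of the 6 (717 bases in the female and 1039 in the male table). Between WT CIH and 5XFAD CIH males, the median Log2FC was 0.42 in the shortest decile of the genes tested and −0.35 in the longest decile, and with the trend on length subtracted *Cyba* had a Log2FC of 1.33 and *Cybb* of 1.98. Between WT NX and WT CIH males the shortest decile had a median of −0.39, and *Cyba* without the trend had −0.39, *Ncf4* −0.18, *Rac2* −0.51 and *Cybb* −0.61. Between WT CIH and 5XFAD CIH females, the shortest decile had a median of 0.20 and the longest −0.04, and *Cyba* had 0.38 and *Cybb* 2.36 without the trend. These values carry no test, and the part of length or of RNA quality in the calls was not tested.

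Log2 CPM of the members was also correlated over libraries, which share depth, scaling and group, as a description. Over all libraries Pearson's r of *Ncf1* and *Ncf4* was 0.92 in 19 females and 0.63 in 20 males, and that of *Cybb* and *Cyba* was 0.90 and 0.63. *Cyba* and *Rac1* had 0.82 in females, and in males *Cyba* and *Rac2* had 0.79, *Ncf4* and *Rac2* 0.72 and *Cybb* and *Ncf1* −0.87. Of deviations from the group means, *Cyba* and *Rac2* had 0.83 in females and 0.85 in males, *Ncf4* and *Rac2* 0.083 and 0.90, and *Cybb* and *Cyba* 0.86 and −0.47. The last pair thus had opposite signs within groups in the sexes. F 5XFAD NX 4 was low in *Cybb*, *Cyba*, *Rac1* and *Rac2* together on the TMM scale. In the 18 females without it, the r within groups was 0.58 for *Cybb* and *Cyba* and 0.61 for *Cyba* and *Rac2*, and over all libraries it was 0.92 for *Cybb* and *Cyba* and 0.91 for *Ncf1* and *Ncf4*. On the FPKM scale, which is scaled by library total in females, *Rac2* was between 38.3 and 38.9 in all 5 female 5XFAD NX libraries, where its TMM-scaled values ranged from 92.7 to 137 CPM.

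Over 13443 genes in both sexes, the genes most like each member were ranked by the lower of the female and the male r. For *Cybb* they were *Lipa* (a lysosomal lipase, r of 0.95 in both sexes), *Ldlrad3* and *Ly9*. For *Cyba* they were *Serf2*, *Sh3bgrl3* and *Psmb6* (a proteasome subunit), with r of 0.98 to 0.99. For *Ncf1* they were *Fez2*, *Commd8* and *Hfe*, and for *Ncf4* *Unc93b1* (a carrier of endosomal Toll-like receptors, r of 0.91 and 0.93), *Rgs19* and *Lrrc25*. *Rac2* was most like *Rab11b*, *Ywhae* and *Rer1*, and *Rac1* was most like *Ywhab*, *Zhx2* and *Perp* with the lowest r of the 6 (0.79 in males for *Ywhab*).

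The other catalytic genes *Nox1*, *Nox3*, *Nox4*, *Duox1* and *Duox2* had at most 33 counts in any library and did not pass the filter on low counts. *Cybc1*, a chaperone needed for stable NOX2 protein, reached 180 CPM in females and 237 CPM in males. Between genotypes in CIH, it was lower in 5XFAD than in WT in both sexes (−0.37 ± 0.0549, FDR = 9.71e-05, and −0.36 ± 0.113, FDR = 0.0157). It was not called between genotypes in NX (−0.23 and −0.30, FDR = 0.0670 and 0.0672), and from WT NX to WT CIH in males it rose (0.37 ± 0.0842, FDR = 0.00425). Without F 5XFAD NX 4 the female NX value of *Cybc1* was −0.26 (FDR = 0.0143). Among the less abundant relatives that passed the filter, *Rac3* was lower in 5XFAD in female and male NX (−0.74 and −0.92, FDR = 0.0340 and 0.00324) and in female CIH (−1.06, FDR = 1.02e-05), at no more than 18.1 CPM in any library. Without F 5XFAD NX 4 the female NX value of *Rac3* was −0.93 (FDR = 0.000198), and without F WT NX 1 it was −0.74 (FDR = 0.0621). *Duoxa1*, a maturation factor of the Duox enzymes, had the lowest p among the relatives lower in 5XFAD in female NX (−1.99 ± 0.485, FDR = 0.0322). Its means were low there, at 4.96 CPM in WT and 1.18 CPM in 5XFAD. In male CIH the lowest p was that of *Noxo1*, the organizer of the Nox1 system (−1.54 ± 0.307, FDR = 0.000878), with means of 4.99 CPM in WT and 1.68 CPM in 5XFAD.

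Among genes of upstream signalling, more fell than rose in 5XFAD. Of 24 genes that carry receptor, kinase or Rac signals to the oxidase, 7 rose and 11 fell from WT CIH to 5XFAD CIH in females and the same numbers in males, with a median Log2FC of −0.18 and −0.13 against −0.02 and −0.06 over all genes. Over all genes 26.2% rose and 25.7% fell in female CIH, and 25.3% and 23.7% in male CIH, so that the share of signalling genes that rose was near the background and the share that fell was above it. *Prkca*, a protein kinase C, fell most clearly (−1.59 ± 0.0779 in females, FDR = 4.11e-09, and −1.84 ± 0.148 in males, FDR = 2.03e-07). *Hvcn1*, the proton channel that balances the oxidase's charge, rose with the lowest p in females (0.72 ± 0.0762, FDR = 4.42e-06), and *Arhgdia*, which holds Rac proteins inactive in the cytosol, in males (1.27 ± 0.131, FDR = 2.56e-06). In NX, none rose and 3 fell in females and 7 in males, where 7.26% of all genes rose and 6.61% fell in females and 10.4% and 7.37% in males. The shares that fell were above the background there too. In females without F WT NX 1, however, no gene of the list was called (6.52% of all genes called), and without it and F 5XFAD NX 4, 6 rose and 7 fell (45.1%). In females without F 5XFAD NX 4, 7 rose and 8 fell, at a background of 44.0% called in either direction. From WT NX to WT CIH in males, 3 of the 24 rose and 10 fell, beside 13.6% and 15.0% of all genes, and with library size alone 4 rose and 6 fell.

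Most genes that remove superoxide and peroxide were higher in 5XFAD in CIH. Of 14, 11 rose in female CIH and 12 in male CIH and none fell, with a median Log2FC of 0.52 and 1.07 (26.2% and 25.3% of all genes rose). The clearest was *Prdx6* in females (1.42 ± 0.0766, FDR = 9.99e-09) and *Prdx4*, the peroxiredoxin of the endoplasmic reticulum, in males (2.32 ± 0.185, FDR = 1.99e-07). In NX, *Prdx4* rose in both sexes (1.35 and 1.5, FDR = 0.0347 and 0.00023) and 3 genes rose in males in all (10.4% of all genes), while in females *Prdx4* was the 1 gene that rose (7.26%). *Sod3*, the extracellular superoxide dismutase, fell in female NX (−2.41 ± 0.482, FDR = 0.0198). Without F 5XFAD NX 4, 6 rose and 1 fell in female NX (44.0% of all genes called). Without F WT NX 1, none of the 14 rose there, *Prdx4* included, and 1 fell (6.52%). Without both libraries, 10 rose and 1 fell (45.1%). Without M 5XFAD NX 4 and 5, 10 rose and none fell in male NX (33.5%). From WT NX to WT CIH in males, 10 of the 14 fell and none rose, where 15.0% of all genes fell and 13.6% rose. The summed level of ribosomal protein genes moved in the same directions, with means of 13555 CPM in WT and 32532 CPM in 5XFAD in female CIH, 15333 and 60063 CPM in male CIH, and 25208 CPM in male WT NX. The shift of short genes given above moved with them in both sexes, and the part of either in the list's change was not tested.

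A list of 12 genes was linked to the supply of NADPH, the oxidase's electron donor, though not all of their enzymes make NADPH themselves. From WT CIH to 5XFAD CIH, 9 rose and 1 fell in females, and 6 rose and 1 fell in males, beside 26.2% and 25.3% of all genes that rose. *Tkt*, a transketolase of the pentose phosphate pathway, rose with the lowest p in both sexes (0.84 ± 0.0750, FDR = 9.92e-07, and 1.16 ± 0.107, FDR = 8.77e-07). The faller was *Idh2*, the mitochondrial isocitrate dehydrogenase, which fell by 0.93 in females (SE 0.0531, FDR = 1.68e-08) and by 0.69 in males (SE 0.111, FDR = 0.000156). *Idh2* was also the 1 gene of the list that fell in NX in each sex (−0.93 and −0.79, FDR = 0.0210 and 0.00132), and without F 5XFAD NX 4 its female value was −1.14 (FDR = 1.67e-05). None of the 12 rose in female NX and 3 rose in male NX (10.4% of all genes), with the lowest p in *Me1*, the malic enzyme (2.44 ± 0.418, FDR = 0.00133). *Me1* was near the filter's limit, with means of 0.66 CPM in male WT NX and 3.54 CPM in male 5XFAD NX. Without F 5XFAD NX 4, 6 rose and 1 fell in female NX (44.0% of all genes called). From WT NX to WT CIH in males, 3 of the 12 fell (15.0% of all genes). With scaling by library size alone, the signalling list had 4 higher and 15 lower in female CIH and 6 and 16 in male CIH, the removal list 9 and 1 and 10 and 1, and the NADPH list 5 and 1 and 4 and 2. In NX this scaling gave the signalling list 0 higher and 2 lower in females and 0 and 12 in males. The removal list had 1 and 2 and 3 and 0 there, and the NADPH list 0 and 1 and 1 and 1. No gene of these lists was called for CIH in WT females, 5XFAD females or 5XFAD males by the quasi-likelihood test.

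**Figure D5:**
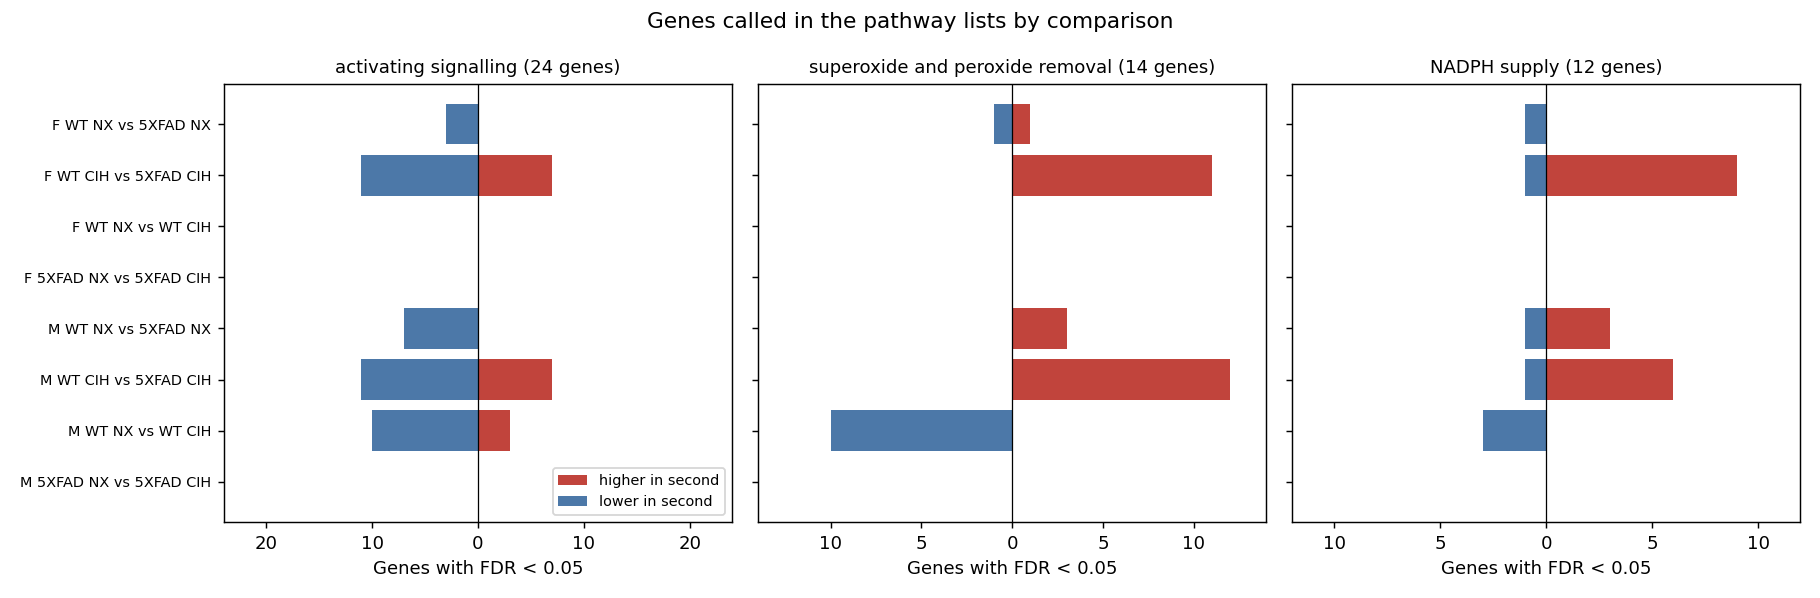
Number of genes with an FDR < 0.05 in the lists of activating signalling, superoxide and peroxide removal, and NADPH supply, in 8 comparisons, with genes higher in the second group to the right and lower to the left. Bars are longest in WT CIH vs 5XFAD CIH of both sexes, and removal genes point right there and left in male WT NX vs WT CIH.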

How the data were processed

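RNA of CD11b+ cells was sequenced in 39 libraries, 19 female and 20 male, grouped by sex, genotype and treatment from the labels. The authors aligned reads to GRCm38 (HISAT2 in the submitters' processing notes) and deposited counts per gene as whole numbers without normalization. The authors also deposited FPKM. In females these are counts divided by gene length and library total, and in males also by a scale factor per library between 0.794 and 1.20 (all genes with at least 10 counts fit within a relative tolerance of 0.001). The annotation of the female table is not given in the sources used here.

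The main test was the quasi-likelihood F test of edgeR 4.0.16 in R 4.3.3 with TMM factors. A gene was kept where 3 or more of the compared libraries exceeded 1 CPM, which is 14.7 reads in the smallest female and 13.5 in the smallest male library. SE is the Log2FC divided by the root of F. DESeq2 1.42.0, edgeR's likelihood ratio test, limma 3.58.1 on log2(FPKM + 1), other scaling and filtering, a replicate block, a joint fit of 4 groups and leaving out each library were alternatives. The code was checked on simulated counts in which 200 genes had a Log2FC of 1. From WT NX to WT CIH, 142 of them were called in females and 115 in males. In the male interaction 57 were called, so that test missed most changes of this size. No pair of libraries within a group was a duplicate (76 pairs, chi-square per degree of freedom at least 4.86).

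The members and gene lists were chosen with earlier results of these data known. The genes that could be named were the members, the *Nox* and *Duox* genes, the lowest-p riser and faller of each list in a genotype comparison, and the 3 genes most like each member. Values of *Rac3* and *Cybc1* outside that rule were added after they were seen. An item withheld from the text is not reported here. Marker lists were summed as CPM. Promoters came from RefSeq. Counting error is covered by the test, and PCR duplicates are not.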

Additional observations from a re-analysis of the deposited data

Results flagged for a closer look

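Of 48 sets of libraries (6 members in 8 groups), 2 held a library farther from the others than Dixon's 95% limit, and chance gives about 1 in 20. *Cybb* in F 5XFAD CIH 5 was at 273 CPM, and its gap to the next library was 0.868 of the group's range (limit 0.710). *Ncf4* in F 5XFAD CIH 3 was at 79.2 CPM, with a gap of 0.784 of the range (limit 0.710).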

How the results depend on the processing

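Of the Log2FC values of the 6 members under other settings, 1044 kept their direction and side of the threshold and 98 changed sign, 4 of these with an FDR below 0.05 in either fit. With the direction kept, 36 lost a call and 18 gained one, and 10 values with the length trend subtracted, which carry no test, moved. The cause was not tested. In female NX the number of members called (2) became 0 at an FDR limit of 0.01, 0 with an absolute Log2FC above 1, 1 with no filter, 0 with the replicate block, 4 with 4 groups in one fit and 4 without F 5XFAD NX 4 and F WT NX 1. In female CIH it went from 5 to 1 with an absolute Log2FC above 1. In male NX (2) it became 1 at an FDR limit of 0.01, with an absolute Log2FC above 1 and with the replicate block. In male CIH it went from 4 to 2 with an absolute Log2FC above 1, and in WT males from 4 to 0 with that rule and with 4 groups in one fit. The male interaction had 1 with DESeq2 and 2 with no filter. Leaving out 1 library gave 0 to 4 in female NX, 2 to 3 in male NX, 3 to 4 in male CIH, 3 to 4 in WT males, 0 to 1 in the male interaction and 5 in each fit of female CIH.

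The Log2FC changed sign as follows, where WT or 5XFAD males and females stand for NX against CIH within that genotype. Library size alone gave *Rac1* −0.084 in female NX, *Rac2* −0.15 in female CIH, *Cybb* 0.033 in 5XFAD females, *Ncf4* −0.031 in the female interaction, *Rac1* −0.055 in male NX, *Ncf4* −0.36 in male CIH, *Rac1* −0.21 in male CIH, *Rac1* 0.072 in WT males, *Ncf1* −0.0091 in 5XFAD males, *Ncf4* −0.057 in 5XFAD males and *Rac1* −0.15 in the male interaction. No filter gave *Rac2* 0.00050 in female NX, *Ncf1* 0.023 in the female interaction and *Rac1* 0.0054 in WT males. Limma on log2(FPKM + 1) gave *Rac1* −0.094 in female NX, *Rac2* −0.15 in female CIH, *Cybb* 0.15 in 5XFAD females and *Ncf4* −0.024 in the female interaction. Leaving out F 5XFAD NX 4 and F WT NX 1 gave *Rac2* 0.088 in female NX, *Cyba* −0.078 in the female interaction, *Ncf4* −0.0046 in the female interaction, *Rac1* −0.022 in the female interaction and *Rac2* −0.071 in the female interaction. Leaving out M 5XFAD NX 4 and M 5XFAD NX 5 gave *Rac2* 0.20 in male NX, *Cybb* 0.21 in 5XFAD males, *Cyba* −0.017 in 5XFAD males, *Ncf1* −0.022 in 5XFAD males, *Ncf4* −0.21 in 5XFAD males, *Rac2* −0.22 in 5XFAD males and *Rac1* −0.0052 in the male interaction. Leaving out M WT NX 3 and M WT NX 5 gave *Rac1* 0.0024 in WT males. These sets of libraries were chosen after seeing the data.

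Same-numbered libraries did not deviate together (no comparison had every correlation above 0.1), so the numbers were not taken as pairs. The replicate block gave *Cybb* 0.14 in 5XFAD females and *Ncf4* −0.013 in the female interaction. It took the genes called in female NX from 2013 to 7 and in male NX from 2638 to 1310.

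Leaving out 1 library at a time, Log2FC values that changed sign ranged as follows. 5XFAD females had *Cyba* −0.017 to 0.24, *Cybb* −0.26 to 0.13, *Ncf1* −0.10 to 0.0087, *Rac1* −0.062 to 0.12 and *Rac2* −0.076 to 0.016. WT females had *Cyba* −0.098 to 0.050 and *Ncf1* −0.071 to 0.00035. 5XFAD males had *Cybb* −0.096 to 0.083, *Ncf4* −0.088 to 0.13, *Rac1* −0.027 to 0.022 and *Rac2* −0.057 to 0.20. The female interaction had *Ncf1* −0.071 to 0.042, *Ncf4* −0.075 to 0.037 and *Rac2* −0.0082 to 0.11. Male CIH had *Ncf4* −0.054 to 0.13. WT males had *Rac1* −0.064 to 0.022. The male interaction had *Rac1* −0.029 to 0.054. Female NX had *Rac2* −0.084 to 0.035. Male NX had *Rac2* −0.23 to 0.023. Depth did not limit the members (at least 424 counts in any library), while *Nox1*, *Nox3*, *Nox4*, *Duox1* and *Duox2* did not pass the filter on low counts.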
